A study of Rattus norvegicus with 36 samples.

Results

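The mevalonate arm of cholesterol synthesis is the run of enzymes that turns acetyl-CoA into farnesyl diphosphate. The genes taken here were Acat2, Hmgcs1, Mvk, Pmvk, Mvd, Idi1 and Fdps, and a gene was included where the platform annotation gave it a probe set that names it and no other gene. Of these 7 genes, 6 had such a probe set, and together they had 9 of the 31042 probe sets tested and made up 6 of the 14217 genes with a probe set of their own. Hmgcs1 had none and was not analysed here. Liver RNA of 36 male Harlan Sprague Dawley rats was measured, with 1 array per animal and 6 animals in each of 6 groups. All animals were 7 weeks old at the start and received corn oil by gavage at 5 ml/kg for 5 days. The vehicle group received corn oil alone. The 5 dosed groups received TBBPA.DBPE, a brominated flame retardant, in the oil, at 0.1 mg/kg in the lowest group, then 0.94 mg/kg, 9.4 mg/kg and 94.3 mg/kg, and 943 mg/kg in the highest. Necropsy followed 1 day after the last dose. All groups carried the same sex, strain and vehicle, so the design has no untreated animals, and no batch of extraction or hybridization is named in the labels. The values are whole-tissue values, in which fewer cells of a type and less RNA per cell cannot be told apart.

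In the mevalonate pathway, acetyl-CoA units are joined and reduced to mevalonate, which is phosphorylated, decarboxylated to isopentenyl diphosphate and then condensed into the isoprenoid farnesyl diphosphate. Farnesyl diphosphate is the branch point to squalene and cholesterol, to ubiquinone and dolichol, and to the lipid anchors of proteins. The liver is a main site of this synthesis, and the genes of the pathway are textbook targets of the transcription factor SREBP-2, which is released from the endoplasmic reticulum when cells are short of sterols and works at promoters together with NF-Y and Sp1. ACAT2, in the nomenclature used for this gene, is the cytosolic thiolase that forms acetoacetyl-CoA, and HMGCS1 adds a further acetyl unit. MVK and PMVK are the kinases, MVD is the decarboxylase, IDI1 interconverts the isopentenyl and dimethylallyl isomers, and FDPS makes farnesyl diphosphate.

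Since the genes are textbook targets of 1 factor, their promoters are shown first. The RefSeq table of promoters on GRCr8 held 6 of the 7 genes, and it did not list Pmvk. Its windows run from 250 bases before to 50 bases after the annotated start. The 250 bases before the start are printed below for the 5 measured genes it holds, 5′ to 3′ on the strand of the gene. Capitals mark CCAAT, the core of the NF-Y box, and GGGCGG, the core of an Sp1 box, on either strand.
Acat2: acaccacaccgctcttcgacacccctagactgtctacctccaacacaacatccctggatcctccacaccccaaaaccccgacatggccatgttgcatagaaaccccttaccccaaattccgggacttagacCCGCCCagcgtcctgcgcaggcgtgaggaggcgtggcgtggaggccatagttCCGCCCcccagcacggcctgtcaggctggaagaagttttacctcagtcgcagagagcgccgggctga
Mvk: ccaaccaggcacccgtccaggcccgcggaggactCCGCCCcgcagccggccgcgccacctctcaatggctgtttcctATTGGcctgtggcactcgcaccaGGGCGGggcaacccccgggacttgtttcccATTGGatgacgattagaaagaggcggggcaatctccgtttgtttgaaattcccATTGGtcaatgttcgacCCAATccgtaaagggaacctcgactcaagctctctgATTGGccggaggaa
Mvd: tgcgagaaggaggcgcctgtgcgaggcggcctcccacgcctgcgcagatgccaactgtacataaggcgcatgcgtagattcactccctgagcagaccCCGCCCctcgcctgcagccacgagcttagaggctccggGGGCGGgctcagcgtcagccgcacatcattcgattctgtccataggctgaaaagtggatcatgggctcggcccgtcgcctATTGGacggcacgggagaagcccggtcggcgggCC
Idi1: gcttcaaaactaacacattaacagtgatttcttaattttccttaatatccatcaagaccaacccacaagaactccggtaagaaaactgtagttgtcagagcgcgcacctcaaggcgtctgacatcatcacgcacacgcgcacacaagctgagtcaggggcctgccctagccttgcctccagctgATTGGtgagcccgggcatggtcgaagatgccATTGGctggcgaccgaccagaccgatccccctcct
Fdps: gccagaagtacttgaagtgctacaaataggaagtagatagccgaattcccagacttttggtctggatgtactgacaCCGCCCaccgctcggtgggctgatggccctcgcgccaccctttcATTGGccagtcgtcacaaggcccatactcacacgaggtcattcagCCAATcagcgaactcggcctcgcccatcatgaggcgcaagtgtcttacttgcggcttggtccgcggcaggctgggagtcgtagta
The Acat2 sequence lies at chr1:50100590-50100839 on the plus strand. The others are on the minus strand, with Mvk at chr12:47819504-47819753, Mvd at chr19:67414975-67415224, Idi1 at chr17:66547525-66547774 and Fdps at chr2:176804817-176805066.

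CCAAT was found in 5 of the 6 promoters, all but that of Acat2, against 37.5% of the 33469 promoters in the table. It was also in 9 of the 11 promoters in the table that belong to later steps of cholesterol synthesis. Mvk had 5 matches, and Mvd, Idi1, Fdps and Hmgcs1 had 2 each. The second match in Mvd begins 2 bases before the start and runs past it, so only its first letters end the printed sequence. GGGCGG was also found in 5 of the 6 promoters, all but that of Idi1, against 33.1% of all promoters and in 9 of the 11 later-step promoters. The letters TCACNCCAC, a common form of the sterol regulatory element, were in 0 of the 6 windows and in 1.12% of all windows. The same letters were in 0 of the 11 later-step promoters. Other forms of the element were not searched, so the count of 0 does not show that these promoters lack one. Each motif was searched on both strands and no matches of different motifs overlapped in the printed sequences. These matches describe letters in the windows and not sites bound by a factor.

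The measured genes lie on 5 chromosomes of GRCr8. Acat2 is at chr1:50100840-50118886, Mvk at chr12:47802002-47819503, Mvd at chr19:67404911-67414974 and Idi1 at chr17:66539761-66547524. Fdps at chr2:176795192-176804816 and Pmvk at chr2:177174344-177184076 share chromosome 2. Each gene is represented by its brightest probe set, which is 1372462_at for Acat2, 1368232_at for Mvk, 1373243_at for Pmvk, 1368020_at for Mvd, 1368878_at for Idi1 and 1367667_at for Fdps. Values are log2 expression values, so that a difference of 1 is a doubling of signal. The 6 probe sets had means over the 36 arrays between 7.43 and 12.21, above 83.3% to 99.4% of all probe sets tested. The array medians lay between 4.59 and 4.66. The defining markers of hepatocytes were bright in every animal, with a mean over 5 of 6 listed genes (Alb, Apoa1, Ttr, Cyp2e1 and Cps1; Tf was not measured) between 13.39 and 13.52 per array. The array of vehicle replicate 1 had the lowest median correlation with the other arrays, at 0.992 against 0.995 for the highest, and results that rest on it are given with and without it.

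Across doses, no gene of the mevalonate arm passed the test against vehicle at any dose. At 94.3 and at 943 mg/kg all 6 genes had higher means than vehicle, by a median of 0.34 and 0.35 on the log2 scale. At 0.1 mg/kg the median difference was 0.15, with 6 of 6 genes higher. At 0.94 mg/kg it was -0.08 with 1 of 6 higher, and at 9.4 mg/kg it was 0.04 with 5 of 6 higher. Over all 31042 probe sets the median difference lay between -0.01 and 0.00 at every dose. The 5 comparisons share the 6 vehicle arrays, so their differences are not independent of each other.

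**Figure D1:**
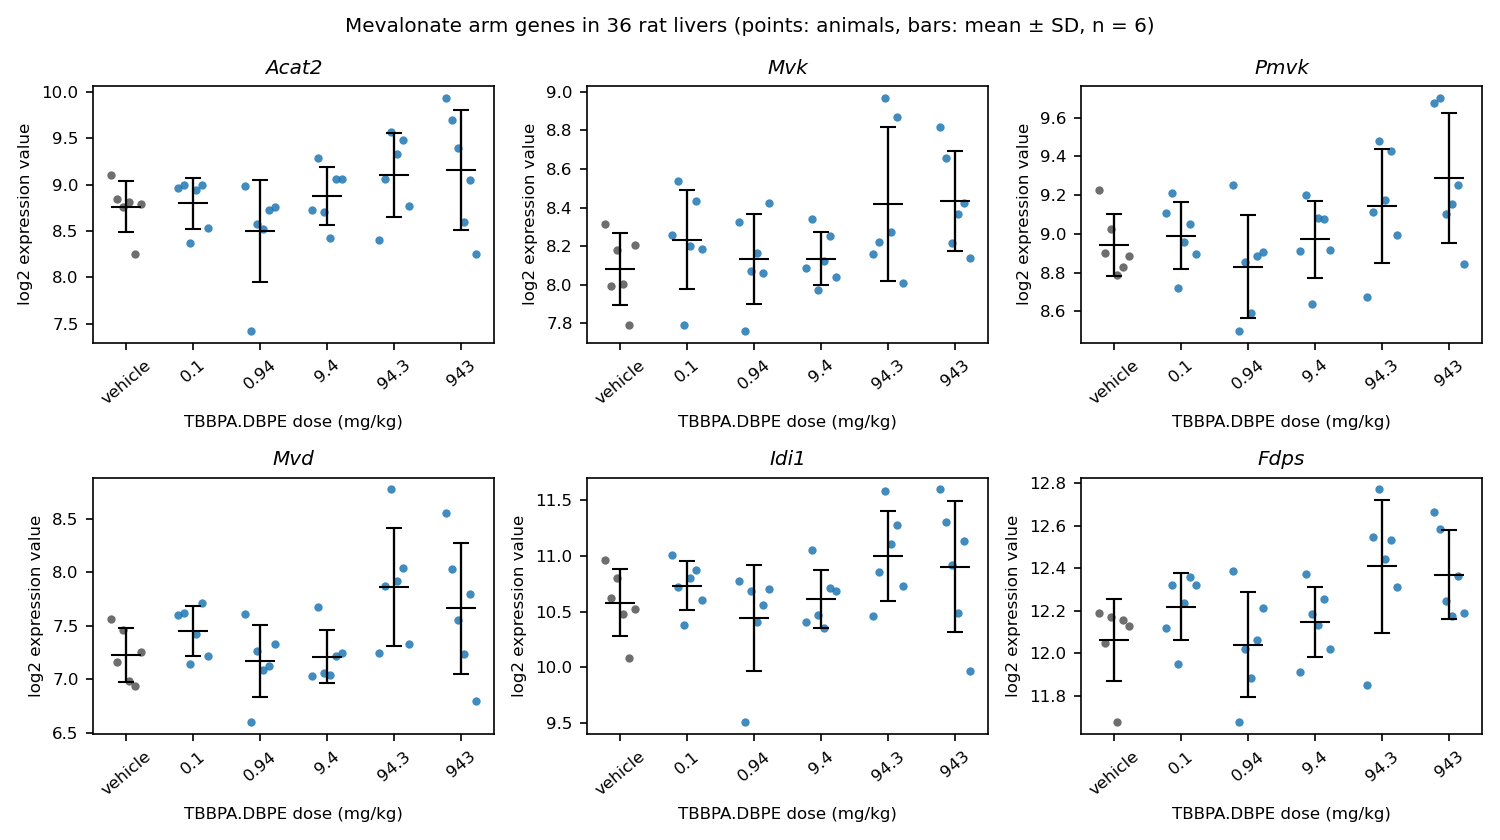
Log2 expression value (vertical axis) of each of the 6 measured genes by dose group (horizontal axis, mg/kg), with 1 point per animal and the group mean and SD. The points of all groups overlap in every gene, and the points at 94.3 and 943 mg/kg are the most widely spread in Mvd.

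Acat2, the thiolase that opens the arm, ranged from 8.26 over a median of 8.81 to 9.11 in vehicle animals. At 0.1 mg/kg its lowest, median and highest values were 8.37, 8.95 and 8.99, and at 9.4 mg/kg they were 8.42, 8.89 and 9.29. Neither group stood apart from vehicle. At 0.94 mg/kg the values were 7.42, 8.65 and 8.99, and the lowest of them, in replicate 2, was the lowest Acat2 value of all 36 animals. The group at 94.3 mg/kg had 8.40, 9.19 and 9.57, and that at 943 mg/kg had 8.26, 9.22 and 9.94. In each of those 2 groups 3 of 6 animals lay above all vehicle animals, while the lowest animals were within the vehicle range or just under it. The means differed from vehicle by 0.34 ± 0.24 (SE) at 94.3 mg/kg and by 0.39 ± 0.24 (SE) at 943 mg/kg, with limma adjusted p of 0.840 and 0.868.

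Mvk, mevalonate kinase, ranged from 7.79 over 8.09 to 8.32 in vehicle. Its lowest, median and highest values were 7.79, 8.23 and 8.54 at 0.1 mg/kg, 7.76, 8.12 and 8.42 at 0.94 mg/kg, and 7.97, 8.10 and 8.34 at 9.4 mg/kg. These 3 groups overlapped vehicle through most of their ranges. The 94.3 mg/kg animals were at 8.01, 8.25 and 8.97, with replicates 3 and 5 at 8.97 and 8.87 and the other 4 animals inside the vehicle range. The 943 mg/kg animals were at 8.14, 8.39 and 8.82, with 6 of 6 animals above the vehicle mean and 4 above the vehicle range. The differences were 0.34 ± 0.14 (SE) and 0.36 ± 0.14 (SE), with limma adjusted p of 0.637 and 0.865. The second Mvk probe set, 1387119_at, gave 0.37 ± 0.16 (SE) and 0.36 ± 0.16 (SE) at these doses. Another, 1375401_at, was dim with a mean of 4.09, below the array medians, and gave 0.07 and 0.16.

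Pmvk, phosphomevalonate kinase, had the narrowest range in vehicle, from 8.79 over 8.89 to 9.22. Its values were 8.72, 9.01 and 9.21 at 0.1 mg/kg, 8.50, 8.87 and 9.25 at 0.94 mg/kg, and from 8.64 to 9.20 at 9.4 mg/kg. Animals of these groups lay on both sides of the vehicle mean. In the 94.3 mg/kg group they were 8.68, 9.14 and 9.48, and at 943 mg/kg 8.84, 9.20 and 9.70. Of the 943 mg/kg animals 5 of 6 were above the vehicle mean and 3 above the vehicle range. The difference was 0.20 ± 0.13 (SE) at 94.3 mg/kg and 0.35 ± 0.13 (SE) at 943 mg/kg, with limma adjusted p of 0.823 and 0.865.

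Mvd, the decarboxylase that yields isopentenyl diphosphate, had the largest difference of the 6 genes. In vehicle it ranged from 6.94 over 7.21 to 7.56, and its values were 7.14, 7.51 and 7.71 at 0.1 mg/kg. At 0.94 mg/kg they were 6.60, 7.20 and 7.61, and at 9.4 mg/kg 7.03, 7.14 and 7.67, the last in replicate 2. At these 3 doses the medians stayed inside the vehicle range. The 6 animals at 94.3 mg/kg ranged from 7.25 over 7.90 to 8.77, all above the vehicle mean and 4 above the vehicle range. Those at 943 mg/kg ranged from 6.80 over 7.68 to 8.55, with 3 animals above and 1 below the vehicle range. The difference at 94.3 mg/kg was 0.64 ± 0.22 (SE), a fold of 1.55, with a 95% interval from 0.20 to 1.07 before any adjustment and a limma adjusted p of 0.522. The 943 mg/kg difference was 0.43 ± 0.22 (SE), with an adjusted p of 0.868.

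Idi1, the isomerase, ranged from 10.08 over 10.57 to 10.96 in vehicle. Its values were 10.38, 10.76 and 11.01 at 0.1 mg/kg, 9.51, 10.62 and 10.78 at 0.94 mg/kg, and 10.35, 10.58 and 11.05 at 9.4 mg/kg. The low value at 0.94 mg/kg belonged to replicate 2, the same animal that was lowest for Acat2. The 94.3 mg/kg group had 10.46, 10.98 and 11.59, and the 943 mg/kg group 9.97, 11.03 and 11.60. In both groups 3 of 6 animals were above the vehicle range, and at 943 mg/kg 1 animal was below it. The differences were 0.42 ± 0.21 (SE) and 0.32 ± 0.21 (SE), with limma adjusted p of 0.728 and 0.875. The second probe set, 1388872_at, gave 0.47 ± 0.23 (SE) and 0.43 ± 0.23 (SE).

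Fdps, which closes the arm with farnesyl diphosphate, ranged from 11.68 over 12.14 to 12.19 in vehicle, with replicate 4 far below the other 5 animals. Its values were 11.95, 12.28 and 12.36 at 0.1 mg/kg, 11.68, 12.04 and 12.39 at 0.94 mg/kg, and 11.91, 12.16 and 12.37 at 9.4 mg/kg. At 0.1 mg/kg 4 of 6 animals were above the vehicle range. Dosed with 94.3 mg/kg, the animals were at 11.85, 12.49 and 12.77, with 5 of 6 animals above the vehicle range. Those given 943 mg/kg were at 12.18, 12.31 and 12.66, with 4 above it and all 6 above the vehicle mean. The differences were 0.35 ± 0.12 (SE) and 0.31 ± 0.12 (SE), with limma adjusted p of 0.537 and 0.865. Without vehicle replicate 4 they were 0.27 and 0.23.

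With limma and Benjamini-Hochberg adjustment over the 31042 probe sets, 0 of 6 genes were called at each dose, as were 0% of all probe sets. At an unadjusted p under 0.05, Mvk, Mvd and Fdps were higher at 94.3 mg/kg, against 3.68% of all probe sets higher and 3.22% lower at that threshold. Mvk, Pmvk and Fdps were so at 943 mg/kg, against 3.07% higher and 2.67% lower. The 6 genes moved together between animals, so these are not counts of separate observations. At the 3 lower doses 0 of 6 genes had an unadjusted p under 0.05 in either direction, against 3%, 2.1% and 2.21% of all probe sets higher and 2.62%, 2.06% and 2.64% lower. An ordinary linear model without moderation also called 0 of 6 genes at each dose. Without vehicle replicate 1, which had the highest value of all 6 genes in its group, the differences ranged from 0.26 to 0.70 at 94.3 mg/kg and from 0.33 to 0.50 at 943 mg/kg, and 0 were called. At 943 mg/kg replicates 1 and 6 moved values in opposite directions. Without replicate 1 the differences of Acat2, Mvd and Idi1 were 0.23, 0.26 and 0.19, and without replicate 6 they were 0.57, 0.61 and 0.51.

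Markers of neutrophils were higher than vehicle at the same doses, in 2 of 2 measured genes of 3, by medians of 0.22 at 94.3 mg/kg and 0.34 at 943 mg/kg. At 9.4 mg/kg, where the arm differed by 0.04, their median was 0.50. The mean of the 2 genes per animal lay between 4.19 and 4.98 in vehicle, 4.62 and 6.81 at 9.4 mg/kg, 4.603 and 5.876 at 94.3 mg/kg, and 4.64 and 5.36 at 943 mg/kg. S100a8, 1 of the 2 genes, had a mean of 4.14, below the lowest array median. An unadjusted p under 0.05 was reached, higher, by 1 of the 2 at 9.4 mg/kg, against 2.21% of all probe sets. At 94.3 and 943 mg/kg 0 reached it, against 3.68% and 3.07% higher. For the slope over the dose rank 1 of the 2 reached it, against 2.76% of all probe sets with a positive slope. Limma called 0 of the 2 neutrophil genes. The part of these cells in the dose differences was not tested. Medians of the other marker lists lay between -0.12 (endothelium) and 0.06 (Kupffer cells and macrophages) at 94.3 mg/kg, and between -0.06 (Kupffer cells and macrophages) and 0.09 (cholangiocytes) at 943 mg/kg. In these lists the unadjusted threshold was reached, higher, by 2 of 3 lymphocyte genes and 1 of 4 adipose and muscle genes at 9.4 mg/kg. At 94.3 mg/kg 1 of 3 lymphocyte genes reached it. At 943 mg/kg 1 of 6 stellate cell and fibroblast genes and 1 of 3 cholangiocyte genes did. For the slope 1 of 3 cholangiocyte genes reached it.

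**Figure D2:**
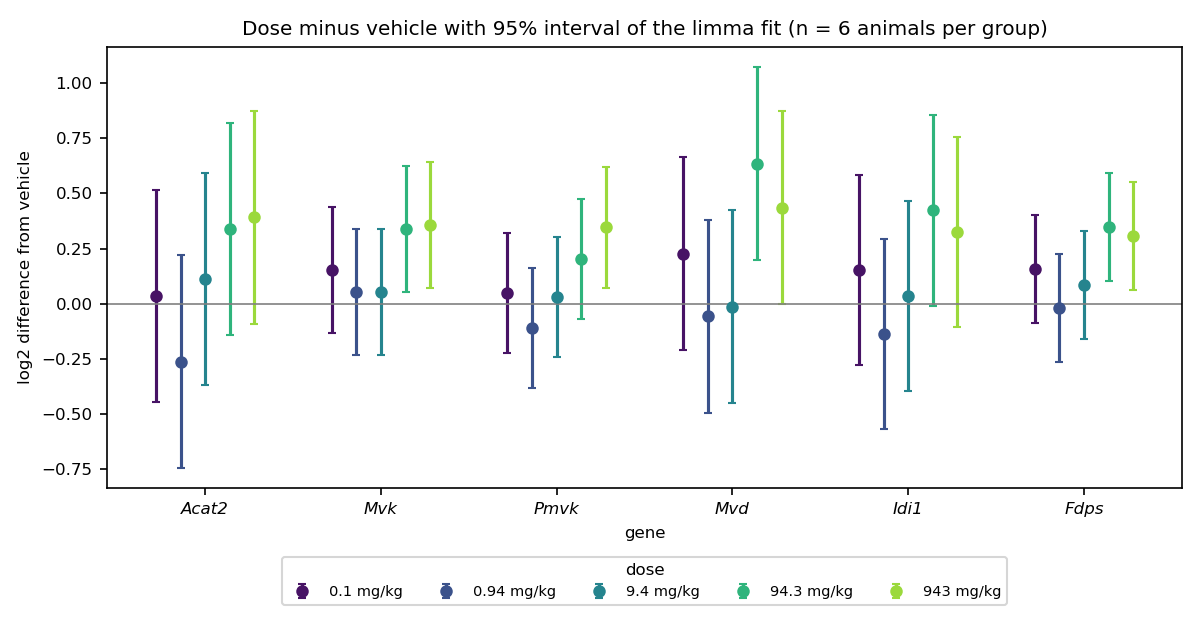
Log2 difference from vehicle (vertical axis) of each gene (horizontal axis) at each of the 5 doses, with points for the fitted difference and bars for its 95% interval without adjustment (n = 6 animals per group). At 94.3 and 943 mg/kg all points lie above 0, between 0.20 and 0.64, and the bars of Mvk and Fdps stay above 0 at both doses. Each bar rests on 1 spread pooled over the 6 groups, while the SDs at these 2 doses were larger than in vehicle.

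A slope over the dose rank from 0 for vehicle to 5 for 943 mg/kg used the order of the doses. It was positive for 6 of 6 genes, between 0.06 and 0.10 log2 units per rank, and the largest was that of Mvd at 0.10 ± 0.04 (SE). All 6 slopes had an unadjusted p under 0.05, against 2.76% of all probe sets with a positive and 2.92% with a negative slope at that threshold. Since the 6 genes moved together between animals, their slopes are not 6 separate observations. Adjusted over all probe sets by limma, 0 of 6 passed, with adjusted p between 0.825 and 0.875, as did 0% of all probe sets. The moderated F test over the 5 doses gave adjusted p between 0.912 and 0.931 and called 0 of 6 genes and 0% of all probe sets. Without the highest dose the slopes lay between 0.04 and 0.10, and that of Pmvk was 0.04 in place of 0.07.

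The step from 94.3 to 943 mg/kg showed no common direction. Its differences do not use the vehicle arrays, but its intervals and p-values rest on the spread pooled over all 6 groups. Acat2, Mvk and Pmvk were higher at 943 mg/kg by 0.05, 0.02 and 0.14, and Mvd, Idi1 and Fdps differed by -0.20, -0.10 and -0.04. The median was -0.01 and the smallest adjusted p 0.959. At an unadjusted p under 0.05 the count was 0 of 6, against 2.45% of all probe sets higher and 3.24% lower. The 95% intervals ran as far as -0.64 for Mvd and 0.54 for Acat2, so differences of that size lay within them. The SDs of these 2 groups were larger than in vehicle for 6 of 6 genes, and the pooled spread does not take this into account.

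Single animals differed widely in these genes. The residual SD, the spread between animals of a group pooled over the 6 groups, was 0.443 for Acat2, 0.402 for Mvd, 0.397 for Idi1, 0.259 for Mvk, 0.247 for Pmvk and 0.221 for Fdps. The median over all probe sets was 0.145, and the 6 genes lay between the 90.2th and the 98.8th percentile. Among the upper 50% of probe sets by mean they lay between the 87.1th and the 98.1th. The widest single group was Mvd at 943 mg/kg, in which the highest animal had 3.37 times the signal of the lowest. For Fdps the widest group was 94.3 mg/kg, with a ratio of 1.89.

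The spread was not even across groups. The SD at 94.3 mg/kg was larger than in vehicle for 6 of 6 genes, by a median ratio of 1.73, and the same held at 943 mg/kg with a median ratio of 2.03 and at 0.94 mg/kg with 1.46. At 0.1 and 9.4 mg/kg 2 of 6 genes had the larger SD, and the median ratios were 0.956 and 0.919. Over all probe sets the median ratio lay between 0.957 and 0.979 at the 5 doses, and 46.5% to 48.2% of probe sets had a ratio over 1. These ratios are a description and were not tested. The SEs, intervals and limma p-values rest on 1 spread per probe set for all 6 groups, so they do not take these ratios into account. Without replicate 2 the ratio at 0.94 mg/kg was 0.836, with 1 of 6 genes above 1. Leaving out any 1 animal of the groups compared gave ratios from 1.23 (without replicate 1) to 2.21 at 94.3 mg/kg and from 1.59 (without replicate 6) to 2.43 at 943 mg/kg, with 5 or 6 of 6 genes above 1. Since the 6 genes moved together between animals, they are not 6 separate observations of the spread.

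The same animals carried the extremes. Vehicle replicate 1 was the highest of its group for 6 of 6 genes. At 0.1 mg/kg replicate 3 was the lowest for 6 of 6 genes, as was replicate 2 at 0.94 mg/kg, and replicate 2 was the highest for 6 of 6 genes at 9.4 mg/kg. At 94.3 mg/kg replicate 3 was the highest for 6 of 6 genes and replicate 1 the lowest for 5. At 943 mg/kg replicate 1 was the highest for 5 and replicate 6 the lowest for 5. Averaged over the 6 genes, replicate 3 at 94.3 mg/kg lay 0.54 above its group mean and replicate 1 of that group was at -0.52. The corresponding values at 943 mg/kg were 0.57 in replicate 1 and -0.60 in replicate 6. In all, 17 of the 36 animals had all 6 genes on one side of their group means, 10 above and 7 below.

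**Figure D3:**
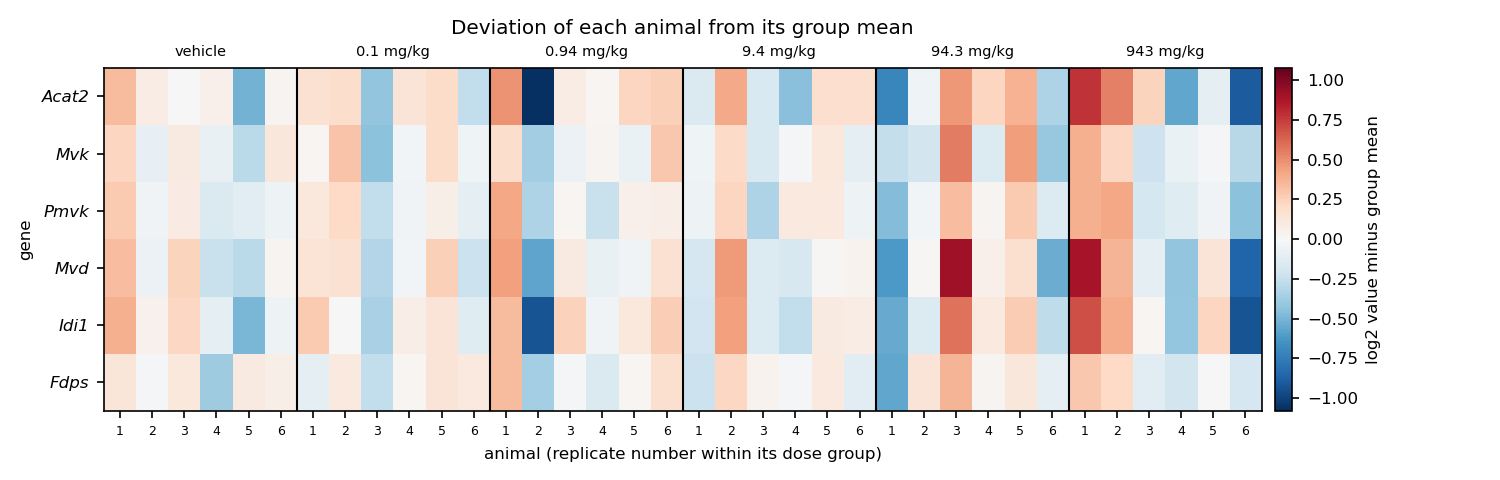
Log2 value minus the group mean (colour scale) for the 6 genes (vertical axis) in each of the 36 animals (horizontal axis, grouped by dose). Averaged over the 6 genes, the animals farthest from 0 are replicate 2 at 0.94 mg/kg, replicates 1 and 3 at 94.3 mg/kg and replicates 1 and 6 at 943 mg/kg.

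Between animals the 6 genes rose and fell together. With each group's mean subtracted, all 15 pairs correlated over the 36 animals, with Pearson's r from 0.703 for Acat2 and Fdps to 0.948 for Acat2 and Idi1 and a median of 0.812. Mvd and Idi1 correlated at 0.930. Spearman's rho ranged from 0.691 to 0.935. Each pair was tested by permuting animals within groups with 100000 resamples, two-sided, and 15 of 15 pairs passed after Benjamini-Hochberg adjustment over the 15 pairs, for r and for rho. For Acat2 and Idi1 the permutation p was 1e-05, the smallest the resamples can give, with an adjusted p of 1.15e-05. For Acat2 and Fdps it was 3e-05, with an adjusted p of 3.21e-05 (rho 0.691, permutation p 4e-05). Leaving out the 2 animals farthest from the median of the first gene of a pair gave r from 0.666 to 0.930. Leaving out any 1 animal gave r of 0.657 or more and 15 of 15 pairs past the threshold in each of the 36 runs.

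**Figure D4:**
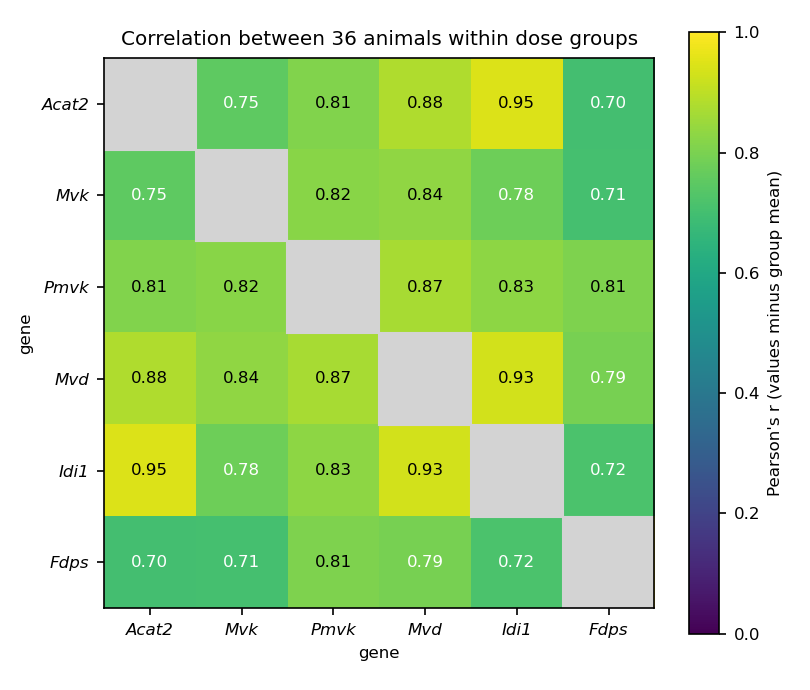
Pearson's r between animals for each pair of the 6 genes, from values minus the group mean over 36 animals, with the colour scale from 0 to 1. The lowest value is 0.703 (Acat2 and Fdps) and the highest 0.948 (Acat2 and Idi1).

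Within single groups of 6 animals the correlations were less certain. At 943 mg/kg r ranged from 0.803 to 0.982 and 14 of 15 pairs passed an exact permutation test after adjustment. At 94.3 mg/kg r ranged from 0.651 to 0.975 with 13 of 15 past the threshold, and at 0.94 mg/kg from 0.692 to 0.978 with 12 of 15. At 0.1 mg/kg the range was 0.428 to 0.939 with 7 of 15 past it. At 9.4 mg/kg the range was 0.386 to 0.973 and in vehicle -0.09 to 0.921, with 0 of 15 past it in both groups. The negative value was that of Acat2 and Fdps. In vehicle Fdps had r of 0.203 with Idi1, 0.289 with Mvk, 0.560 with Mvd and 0.579 with Pmvk. Vehicle pairs without Fdps ranged from 0.638 to 0.921. Whether the groups differ in these correlations was not tested.

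The other probe sets of the genes gave the same picture where they were bright. The second Idi1 probe set correlated with the first at 0.983 and the second Mvk probe set with the first at 0.933. Their r with the other 5 genes ranged from 0.720 to 0.922 and from 0.716 to 0.811. The dim Mvk probe set 1375401_at correlated with the first at 0.04.

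To find genes whose pattern between animals was most like that of the arm, each gene's values minus group means were correlated with the mean of the 6 genes' standardized values over the 36 animals. Against the mean of the other 5, the members themselves ranged from 0.796 for Fdps to 0.946 for Mvd. Among 14211 other genes the median r was 0.00, the 95th percentile 0.328 and the 99th 0.467, and 79 genes (0.556%) were above 0.5. These correlations are descriptions over arrays shared by all genes.

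The highest were Hsd17b7 at 0.955, Sqle at 0.955, Lss at 0.937, Msmo1 at 0.922 and Cyp51 at 0.905. All 5 encode enzymes of the later steps of cholesterol synthesis, from squalene epoxidation by SQLE and ring closure by LSS to the demethylation steps. Elovl6, a fatty acid elongase, followed at 0.879, and Acss2, which makes cytosolic acetyl-CoA from acetate, at 0.876. Fdft1, the squalene synthase that draws on the product of Fdps, was at 0.867. Next came Sc5d at 0.848, Ebp at 0.842 and Dhcr7 at 0.831, all enzymes of the last sterol steps. Tmem254 at 0.832, Tmem97 at 0.827, Aacs at 0.751 and Erg28 at 0.747 completed the first 15. AACS is the ligase that activates acetoacetate in the cytosol.

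At the other end, Kif18a was at -0.66, C13h1orf74 at -0.65, Syncrip-ps2 at -0.63, Srp19 at -0.62 and Dbt at -0.62. Kif18a was dim, with a mean of 2.37. In all, 51 of 14211 genes (0.359%) had r under -0.5.

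**Figure D5:**
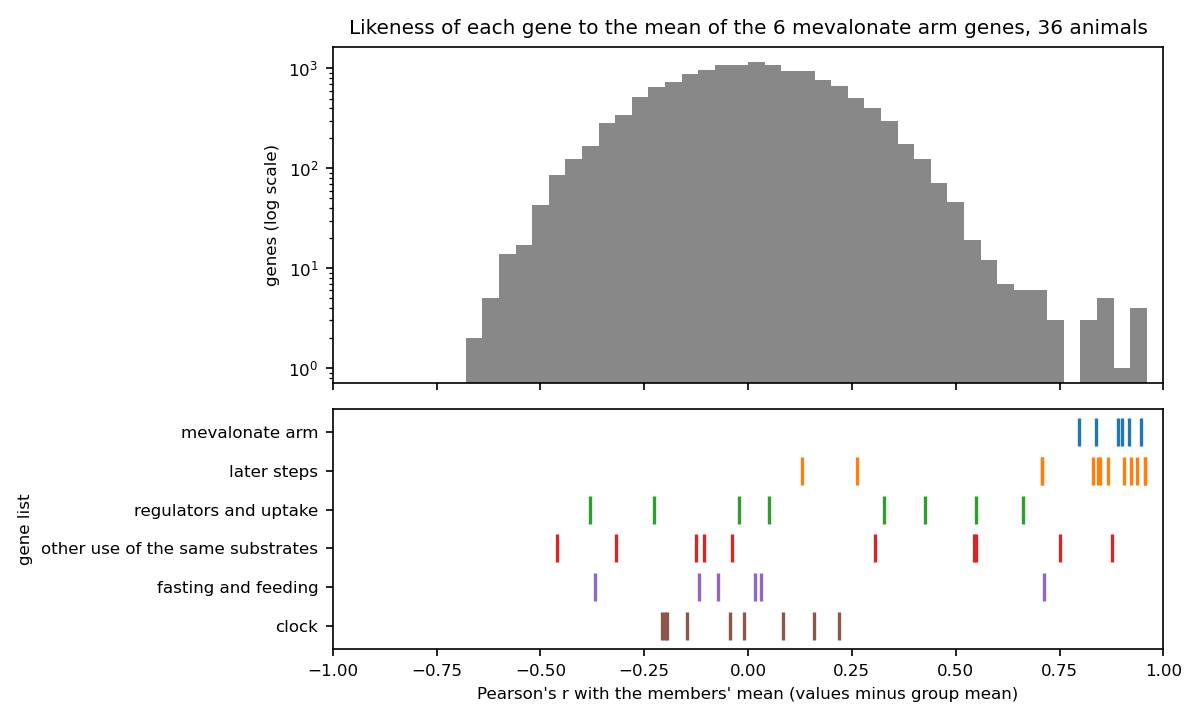
Pearson's r with the mean of the 6 genes' standardized values (horizontal axis), over 36 animals with group means subtracted. The upper panel counts the 14211 other genes on a log scale, and in the lower panel each mark is 1 gene of a list, with the 6 members set against the mean of the other 5. Genes of the later steps of cholesterol synthesis reach 0.955, and clock genes lie between -0.21 and 0.22.

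The rest of the cholesterol pathway was described by a list of 15 later-step genes, of which 13 were analysed here. Their r with the arm ranged from 0.130 to 0.955 with a median of 0.848, and 11 of 13 were above 0.5. The exceptions were Ggps1 at 0.130, which leads from farnesyl to geranylgeranyl diphosphate and so away from cholesterol, and Lbr at 0.263, a nuclear envelope protein with sterol reductase activity whose probe set was dim. At 94.3 and at 943 mg/kg 12 of 13 later-step genes had higher means than vehicle, by medians of 0.15 and 0.20, and limma called 0 of 13 at each dose. Sqle differed by 0.68 ± 0.24 (SE) at 94.3 mg/kg, with a limma adjusted p of 0.550, and by 0.46 ± 0.24 (SE) at 943 mg/kg. At an unadjusted p under 0.05, 4 of 13 were higher at 94.3 mg/kg (Sqle, Lss, Msmo1 and Hsd17b7), against 3.68% of all probe sets, and 1 of 13 at 943 mg/kg (Msmo1), against 3.07%. At the 3 lower doses 7, 1 and 6 of 13 were higher, with medians of 0.04, -0.10 and -0.03, and 0 of 13 were called. At these doses the same threshold was passed by 1 gene, Lbr, which was lower at 0.1 mg/kg (-0.25), against 2.62% of all probe sets. The slope over the dose rank was positive for 12 of 13 later-step genes and limma called 0. Of the 13, 6 had a positive slope with an unadjusted p under 0.05, against 2.76% of all probe sets.

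Of 11 regulators and uptake genes, 8 were analysed here. Srebf2, which encodes SREBP-2, had r of 0.662 with the arm, and Scap, its escort protein, 0.549. Insig1, which retains that complex, was at 0.425. Stard4 was at 0.328, Srebf1, which encodes the SREBP-1 forms, at 0.05, Mbtps1 at -0.02, Mbtps2 at -0.23 and Insig2 at -0.38. Srebf2 differed from vehicle by 0.20 ± 0.08 (SE) at 94.3 mg/kg and by 0.08 ± 0.08 (SE) at 943 mg/kg, with limma adjusted p of 0.605 and 0.912. Of the 8 genes, 0 were called at any dose, and 1, Srebf2, had an unadjusted p under 0.05 at 94.3 mg/kg (higher, against 3.68% of all probe sets) and 0 at each of the other doses.

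Of 13 genes that make or use the same substrates, 10 were measured and 4 had r above 0.5. These were Acss2 and Aacs, given above, Acly at 0.550, which makes cytosolic acetyl-CoA from citrate, and Dhdds at 0.544, which builds dolichol from farnesyl diphosphate. The mitochondrial genes of ketone metabolism lay on the other side, with Acat1 at -0.46 and Bdh1 at -0.32. Aacs differed by 0.78 ± 0.32 (SE) at 94.3 mg/kg and 0.59 ± 0.32 (SE) at 943 mg/kg, with limma adjusted p of 0.629 and 0.868. Limma called 0 of 10 at any dose. At an unadjusted p under 0.05, 1 of 10 was higher at 94.3 mg/kg (Aacs), against 3.68% of all probe sets. Bdh1 was lower at that threshold at 0.1, 9.4 and 943 mg/kg, by -0.12, -0.10 and -0.12, against 2.62%, 2.64% and 2.67% of all probe sets.

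Genes that follow feeding and the time of day were given beside the arm because the liver's cholesterol synthesis is known to vary with both. Of 8 feeding genes 6 were measured. Fasn, fatty acid synthase, had r of 0.713 with the arm, Ppargc1a was at -0.37 and Pck1, the gluconeogenic enzyme, at -0.12. The 9 measured clock genes of 11 names ranged from -0.21 for Npas2 to 0.218 for Dbp. Limma called 0 of the genes of both lists at any dose. At an unadjusted p under 0.05 and 94.3 mg/kg, Fasn was higher (0.46), against 3.68% of all probe sets. Pdk4 (-0.64), Angptl4 (-0.61) and the clock gene Npas2 (-0.29) were lower there, against 3.22%. At the same threshold Pck1 was lower at 0.1 mg/kg (-0.43), against 2.62%, and the clock gene Nr1d1 at 9.4 mg/kg (-0.28), against 2.64%. At 0.94 and 943 mg/kg 0 genes of both lists passed it. Feeding and the hour of necropsy are not given per animal in the labels, and their part in the pattern between animals was not tested.

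Markers of cell types were set beside the arm in the same way. The mean of each marker list, with group means subtracted, had r between -0.23 for neutrophils (2 of 3 genes measured) and 0.131 for cholangiocytes (3 of 4 measured). For hepatocytes r was -0.10, for Kupffer cells and macrophages 0.08 (4 of 6) and for stellate cells and fibroblasts -0.19 (6 of 6). The remaining lists were endothelium at 0.07 (4 of 5), lymphocytes at -0.03 (3 of 4), erythroid cells at -0.02 (2 of 3), pancreas at 0.107 (3 of 3), and adipose and muscle at 0.05 (4 of 4). All 4 adipose and muscle genes had mean values below the lowest array median. The array medians themselves had r of -0.31 with the arm. With each array centred on its median the 15 pairs correlated at 0.715 to 0.950.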

How the data were processed

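The authors deposited 1 log2 value for each probe set and array. The submitters' processing notes name RMA and affy, with versions not given in the sources used here. RMA normalizes arrays to a common distribution, so a change shared by most genes would not be seen. Per the series' design text the authors used R/maanova, which was not run here. The 57 control probe sets were left out and 31042 were tested with no filter on signal. The probe table pairs 20826 with 1 gene, 436 with several and 9780 with none. Names come from the platform annotation, checked against RefSeq on GRCr8.

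All 36 arrays entered 1 limma model (R 4.3.3, limma 3.58.1) with a mean per group, and p-values are two-sided and adjusted by Benjamini-Hochberg within a comparison at 0.05. Correlations used Python 3.11.15, numpy 2.4.6, scipy 1.17.1 and pandas 2.3.3. The planned 21 pairs of 7 genes became 15 pairs of 6, since Hmgcs1 has no probe set of its own. Named genes are the members, genes of each list with the highest and lowest likeness, and over the array the 15 highest and 5 lowest. The plan was up to 4 genes per list, but all measured regulators and more than 4 of the substrate genes are named. Some list genes are named for an unadjusted p under 0.05 against vehicle. The model was run on simulated data with independent noise and 1 SD per probe set in all groups. The 6 genes here were correlated and had uneven SDs, so that run does not cover them. The members and lists were chosen with earlier results of these data known. Precision is set by 6 arrays a group, and the typical SE of a difference was 0.08 (median over all probe sets). The labels call the animals separate samples. The limma p-values set a difference or slope against the spread between animals, and those of the correlations come from permuting animals within groups.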

Additional observations from a re-analysis of the deposited data

Results flagged for a closer look

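In 4 of the 36 groups of values (6 genes in 6 dose groups), 1 animal stood apart from the other 5 by a gap of more than 0.625 of the group's range. For normally distributed values chance gives this in about 1 in 20 groups. The 6 genes moved together between animals, so the 36 groups of values are not separate observations.

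At 0.94 mg/kg replicate 2 had the lowest Acat2 value, 7.42, with the next animal at 8.52. The same animal had the lowest Idi1 value, 9.51, with the next at 10.41. Without it the mean of Acat2 in that group was 8.72 in place of 8.50 and that of Idi1 10.63 in place of 10.44.

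Replicate 2 at 9.4 mg/kg had the highest Mvd value, 7.67, with the next animal at 7.25. In vehicle, replicate 4 had the lowest Fdps value, 11.68, with the next at 12.05, and without it the vehicle mean was 12.14 in place of 12.06.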

How the results depend on the processing

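No gene was called in any alternative, and the count of genes called stayed 0 of 6 in every comparison and 0 in every list. Of 426 member differences recomputed under other settings, 420 kept their direction, and of 648 with 1 animal left out 612 did. The smallest adjusted p among them was 0.375 and 0.135, the latter for Fdps at 94.3 mg/kg without replicate 1. Directions of these differences turned where the difference was smaller in size than its SE. The largest of them was Idi1 at 0.94 mg/kg, at -0.139 ± 0.213 (SE). With array weights Fdps at 0.94 mg/kg was 0.00335 and Mvd at 9.4 mg/kg 0.0247. With all probe sets of a gene averaged Mvk at 0.94 mg/kg was -0.00168. Without vehicle replicate 1 Mvd and Fdps at 0.94 mg/kg were 0.00852 and 0.00435, and Mvd at 9.4 mg/kg was 0.0515. Leaving out single animals turned Acat2 at 0.1 mg/kg (-0.0656 to 0.121). At 0.94 mg/kg it turned Fdps (-0.0977 to 0.0519), Idi1 (-0.238 to 0.0479), Mvd (-0.145 to 0.0566) and Mvk (-0.00508 to 0.127). At 9.4 mg/kg it turned Idi1 (-0.0653 to 0.11), Mvd (-0.106 to 0.0515), Mvk (-0.00313 to 0.102) and Pmvk (-0.0173 to 0.095). Between 943 and 94.3 mg/kg it turned Acat2 (-0.103 to 0.233), Fdps (-0.151 to 0.0336), Idi1 (-0.238 to 0.0881) and Mvk (-0.0635 to 0.128). At 94.3 and 943 mg/kg against vehicle, and for the slopes, no alternative turned a direction. The count of correlated pairs was 0 of 15 within vehicle, 0 within 9.4 mg/kg and 7 within 0.1 mg/kg, where each test had 6 animals, and Acat2 and Fdps within vehicle gave -0.0856. The likeness of the 15 named genes stayed between 0.699 and 0.965 under the alternatives added after seeing the data.

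The replicate number is shared between groups as a label only. Arrays with the same number in different groups had a median correlation of their deviations of 0.0026 (from -0.27 to 0.29 over 90 pairs), against -0.0094 for different numbers. With the replicate number as a block 0 of 6 genes were called, the smallest adjusted p was 0.521, and 15 of 15 pairs correlated.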
